A study of Mus musculus with 6 samples.

Results

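The immediate early AP-1 and Egr genes were followed in the heart of male mice with the human sex-determining gene SRY switched on in every tissue. The set holds 10 genes, chosen by name, and 8 of them were found by symbol on the array, with 1 probe each of 25697 probes in all. Fosl2 and Jund were not found under those symbols. RNA of 6 hearts at postnatal day 6 (P6) was hybridized to 1 BeadChip array each, 3 from hSRY-ON and 3 from hSRY-OFF pups of the FVB strain (FVB/N in the study's methods). In hSRY-ON pups a single transgene copy at the H11 locus had been recombined in the fertilized egg by Cre carried over from the oocyte of a Ddx4-Cre mother, which puts FLAG-tagged human SRY and EGFP under the ubiquitous CAG promoter, and the pups chosen had not inherited the Cre transgene themselves. The methods define hSRY-OFF as mice with the same Signalox-hSRY transgene left unrecombined and call littermates without it controls, while the comparison of transcriptomes is described as one with control pups, so which of these the hSRY-OFF hearts were is not settled here. The transgene comes from 1 mouse line. All 9 cardiomyocyte markers with a probe, Nppa, Myh6 and Tnni3 among them, were above background on at least 1 array, and 8 of them on every array. Ryr2, the cardiac ryanodine receptor, was not above background in hSRY-ON heart 1.

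Immediate early genes are transcribed within minutes of a stimulus, without new protein synthesis, and their RNA decays quickly. Fos and Jun proteins pair through leucine zippers to form the transcription factor AP-1, while Egr1 is a zinc finger factor induced by the same MAP kinase signals. In the heart they are known to respond to stretch, adrenergic stimulation and injury.

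The promoters of the AP-1 members are shown first, since several of the genes varied together between hearts. Of the 10 genes, 8 had an entry in the promoter table, taken from RefSeq on GRCm38.p6, and Egr1 and Ier2 had none. Both strands of the 250 bases before each start were searched for the cyclic AMP response element (CRE) half-site TGACG, for TGACNTCA, which takes in the full CRE TGACGTCA and the Jun-type AP-1 site, for the AP-1 site TGANTCA, for the CArG box and for the TATA core TATAAA. The half-site lies inside the full CRE. Shown are 4 of the promoters with a match to either of these first patterns, which is in capitals, and each is read 5′ to 3′ up to the base before the start. That of Fosb is not printed, since part of its window lies inside the annotated gene. The printed windows lie at chr12:85473640-85473889 on the plus strand for Fos and, on the minus strand, at chr4:95052223-95052472 for Jun, chr8:84978749-84978998 for Junb and chr1:191183334-191183583 for Atf3.
Fos: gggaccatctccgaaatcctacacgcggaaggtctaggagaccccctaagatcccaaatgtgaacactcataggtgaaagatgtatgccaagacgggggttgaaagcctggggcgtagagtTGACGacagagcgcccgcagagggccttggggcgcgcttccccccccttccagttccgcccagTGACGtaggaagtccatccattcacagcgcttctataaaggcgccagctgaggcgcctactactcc
Jun: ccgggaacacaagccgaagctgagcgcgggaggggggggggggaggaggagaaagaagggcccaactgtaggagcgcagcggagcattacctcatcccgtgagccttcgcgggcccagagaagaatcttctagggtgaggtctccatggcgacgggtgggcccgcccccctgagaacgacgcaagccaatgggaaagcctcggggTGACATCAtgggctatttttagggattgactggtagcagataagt
Junb: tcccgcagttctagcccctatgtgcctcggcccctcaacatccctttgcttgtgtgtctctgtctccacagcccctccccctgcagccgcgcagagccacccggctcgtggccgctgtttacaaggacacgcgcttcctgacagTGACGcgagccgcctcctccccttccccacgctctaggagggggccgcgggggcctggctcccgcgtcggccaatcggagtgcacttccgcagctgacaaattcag
Atf3: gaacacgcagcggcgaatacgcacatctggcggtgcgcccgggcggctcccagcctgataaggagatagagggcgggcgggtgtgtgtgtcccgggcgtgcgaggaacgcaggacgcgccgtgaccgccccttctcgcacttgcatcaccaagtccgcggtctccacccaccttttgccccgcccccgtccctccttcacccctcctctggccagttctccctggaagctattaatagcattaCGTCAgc
Fos held the half-site at 129 to 125 and at 66 to 62 bases before its start, and a TATA core at 33 to 28. Fosb held it at 60 to 56, in the part of its window that lies inside the annotated gene. Junb held it at 106 to 102, and Atf3 on the other strand at 7 to 3. Jun held no half-site but the octamer tgacatca at 45 to 38. Of 32851 promoters of the same length, 17.8% held the half-site and 7.49% TGACNTCA. The CArG box, present in 1.47% of all promoters, and TGANTCA, present in 6.75%, were in none of these windows. Sites more than 250 bases before the start were not searched, nor were Egr1 and Ier2, so the genes may still hold either site. A match describes letters only.

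None of the AP-1 and Egr genes differed between hSRY-ON and hSRY-OFF hearts at an adjusted p-value under 0.05. In whole hearts, fewer cells of a type and less RNA per cell cannot be told apart. Of the 8 probes, 7 were tested, that is, detected over the negative-control beads on at least 3 of the 6 arrays. Limma called 0 of these 7, against 27.5% of all 12970 tested probes, 13.8% higher and 13.7% lower in hSRY-ON. At an unadjusted p-value under 0.05 it called 1 of 7, against 40.3% of all. Positive changes outnumbered negative ones, 6 of 7, against 6434 of all 12970 tested probes. Several of the 7 genes varied together between hearts, and Egr1 and Atf3 turned negative with a single heart left out. The median log2 fold change (hSRY-ON minus hSRY-OFF) was 0.23, against -0.0046 over all tested probes. The standard error of the change was large, with a median of 0.37 against 0.16 over all tested probes. With 3 hearts against 3, an exact permutation test, two-sided, cannot go below p = 0.1.

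**Figure D1:**
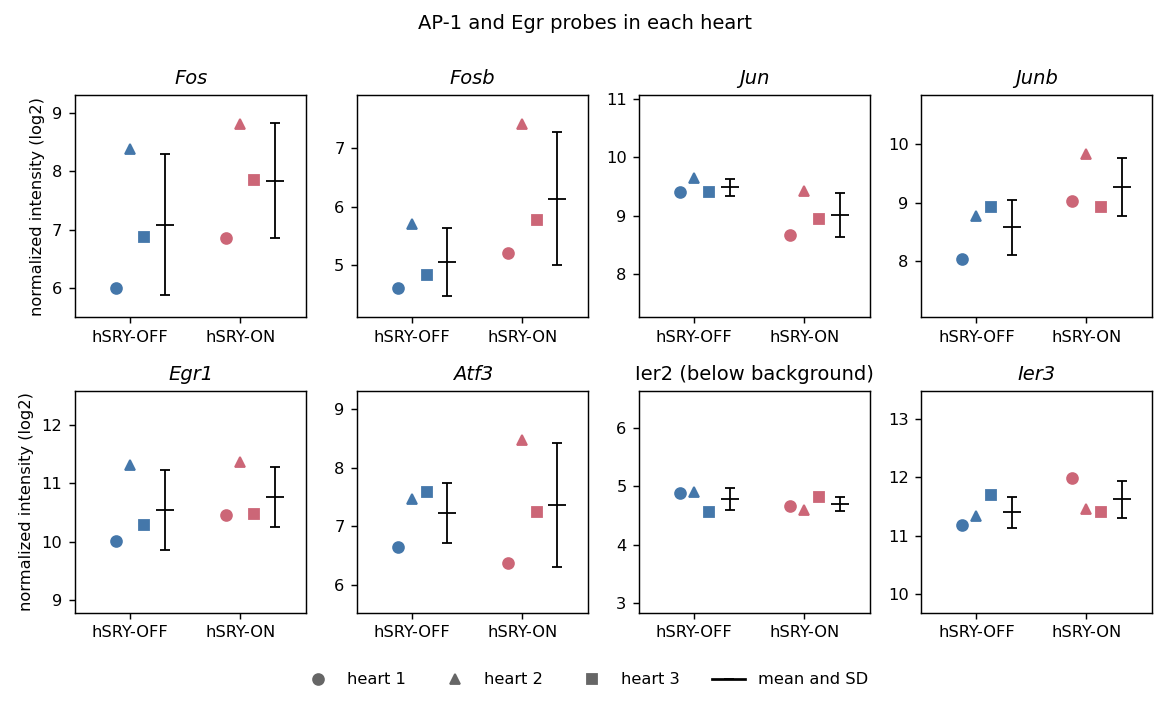
Normalized log2 intensity of each AP-1 and Egr probe (vertical axis, every panel spanning the same range) in hSRY-OFF and hSRY-ON hearts, with a marker shape for each heart number and the mean and SD beside each group. The hearts numbered 2 (triangles) are the highest of their group for Fos, Fosb, Jun and Egr1.

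Fos, a partner of Jun in AP-1, had the widest spread. Its normalized log2 intensity was 5.9996, 8.38 and 6.88 in hSRY-OFF hearts 1, 2 and 3, and 6.85, 8.81 and 7.85 in hSRY-ON hearts 1, 2 and 3. The deposited intensities behind these values were 217, 570 and 211 in hSRY-OFF and 238, 585 and 344 in hSRY-ON hearts. Heart 2 was the highest in each group, and the groups overlapped almost entirely. The highest hSRY-OFF heart stood 5.22-fold above the lowest, and the highest hSRY-ON heart 3.89-fold above the lowest. The log2 fold change was 0.75 (standard error, SE, 0.66, limma adjusted p = 0.432), with a 95% interval of -0.78 to 2.28, which takes in both a fall and a 4.87-fold rise.

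Fosb, a close relative of Fos that also dimerizes with Jun proteins, was near background. Its log2 intensity was 4.61, 5.71 and 4.84 in hSRY-OFF and 5.22, 7.42 and 5.78 in hSRY-ON hearts 1, 2 and 3. It was detected in 1 of 3 hSRY-OFF hearts, number 2, and in 2 of 3 hSRY-ON hearts, numbers 2 and 3. Heart 2 was again the highest of each group, and hSRY-OFF heart 2 lay above hSRY-ON heart 1. The change of 1.09 (SE 0.55, limma adjusted p = 0.179) was the largest of the set in size, with a 95% interval of -0.19 to 2.36. It moved with the processing, from 0.40 without background correction to 1.16 with each array scaled to the median of its detected probes.

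Junb, a Jun protein with weaker activating capacity than Jun itself, was the only gene of the set whose groups did not overlap, as was true of 45.2% of all tested probes, 23.6% with hSRY-ON on top. Its log2 intensity was 8.05, 8.77 and 8.92 in hSRY-OFF and 9.04, 9.84 and 8.93 in hSRY-ON hearts 1, 2 and 3. The gap between the groups was 0.0083, between hSRY-OFF heart 3 and hSRY-ON heart 3. The change was 0.69 (SE 0.30, limma adjusted p = 0.133), with a 95% interval of -0.021 to 1.40.

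Jun was the only tested gene of the set with a negative change. Its log2 intensity was 9.40, 9.65 and 9.40 in hSRY-OFF and 8.68, 9.42 and 8.94 in hSRY-ON hearts 1, 2 and 3. The hSRY-OFF hearts lay close together, and hSRY-ON heart 2 reached their range while the other two hSRY-ON hearts were below it. The change was -0.47 (SE 0.20, limma adjusted p = 0.118), with a 95% interval of -0.93 to -0.0096. Without hSRY-ON heart 2 it was -0.67 and passed the threshold (adjusted p = 0.0273, limma), while the range over the leave-one-out fits was -0.67 to -0.31. For Jund, the Jun protein known for steady rather than induced expression, the annotation gives Jund1 as an older name, and a probe of that name, found outside the rule, was at 7.9982, 8.24 and 8.58 in hSRY-OFF and 7.98, 8.03 and 8.23 in hSRY-ON hearts. Its groups overlapped, with a change of -0.19 (SE 0.17, limma adjusted p = 0.443) and a 95% interval of -0.59 to 0.21.

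Egr1 was well above background in every heart. Its log2 intensity was 10.01, 11.31 and 10.29 in hSRY-OFF and 10.45, 11.36 and 10.47 in hSRY-ON hearts 1, 2 and 3, from deposited intensities of 1326, 3254, 1058, 1439, 2752 and 1475. Hearts numbered 2 of both groups stood together at the top, and the other 4 hearts lay within a narrow band below them. The change was 0.23 (SE 0.37, limma adjusted p = 0.691), with a 95% interval of -0.65 to 1.10. It turned negative, to -0.074 without hSRY-ON heart 2 and to -0.037 without hSRY-OFF heart 1.

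Atf3, a stress-induced bZIP factor that pairs with Jun proteins and often represses, was at 6.64, 7.46 and 7.59 in hSRY-OFF and 6.36, 8.47 and 7.24 in hSRY-ON hearts 1, 2 and 3. The hSRY-ON hearts held both the lowest and the highest value. The change was 0.13 (SE 0.50, limma adjusted p = 0.874), and it fell to -0.43 without hSRY-ON heart 2 and to -0.16 without hSRY-OFF heart 1. Ier3, which encodes a regulator of survival and ERK signaling, was at 11.18, 11.34 and 11.69 in hSRY-OFF and 11.99, 11.47 and 11.41 in hSRY-ON hearts. Its groups overlapped as well, with a change of 0.22 (SE 0.20, limma adjusted p = 0.453) and a 95% interval of -0.25 to 0.69. Ier2, another immediate early gene of that naming series, was detected on none of the 6 arrays, with detection p-values of 0.203 to 0.759, so it was not tested.

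**Figure D2:**
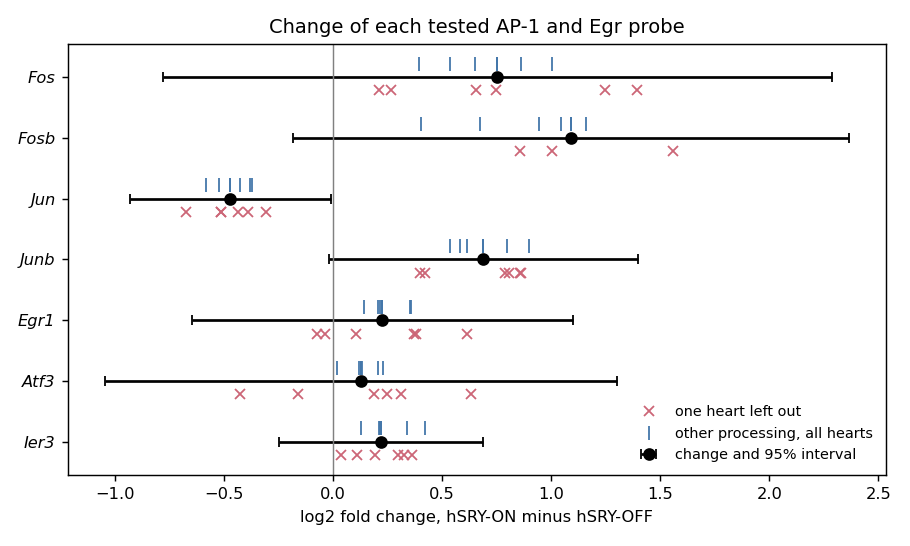
Log2 fold change of each tested AP-1 and Egr probe (horizontal axis) with its 95% interval from limma, beside the values under other processing with all hearts kept and with each heart left out. Intervals cross 0 for all but Jun, and the values of Egr1 and Atf3 without a heart lie on both sides of 0.

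Most of the set had a wide spread between hearts of the same group. The standard deviation within groups, on the log2 scale, was 1.10 for Fos, 0.91 for Fosb, 0.83 for Atf3, 0.61 for Egr1 and 0.48 for Junb, against a median of 0.20 over all tested probes. By this measure Fos and Fosb stood at percentile 99.9 of all tested probes, Atf3 at 99.8, Egr1 at 98.9 and Junb at 96.3. Jun and Ier3, at 0.28 and 0.29, stood at percentiles 74.3 and 75.4. Among probes of similar level, taken as 1 of 4 equal bins by mean level, Fosb was at percentile 99.8, Fos at 99.7 and Ier3 at 93.7. A wide spread was not particular to the set. The median of this measure was 0.61 over the 7 tested genes, 0.31 over 31 other immediate early genes and 0.77 over 5 neutrophil markers. These ranks and medians describe the probes and were not tested.

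**Figure D3:**
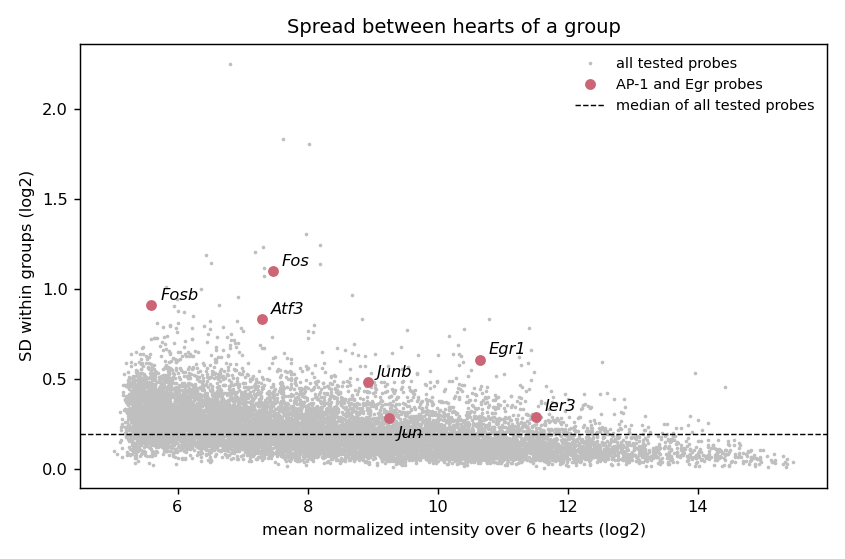
Standard deviation within groups (log2, vertical axis) against the mean normalized log2 intensity over 6 hearts for all tested probes (grey) and the AP-1 and Egr probes (red). Fos, Fosb and Atf3 lie near the top of the cloud at their level, while Jun and Ier3 lie closer to the median of 0.20.

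The deviations ran in the same direction across several genes. In hSRY-OFF heart 2 the deviation from the group mean was 1.30 for Fos, 0.66 for Fosb, 0.77 for Egr1 and 0.17 for Jun on the log2 scale. In hSRY-ON heart 2 it was 0.97 for Fos, 1.28 for Fosb, 0.60 for Egr1, 0.41 for Jun, 1.11 for Atf3 and 0.57 for Junb. The hearts numbered 2 were the highest of both groups in 4 of the 7 tested genes, Fos, Fosb, Jun and Egr1, against 11% of all tested probes. That share holds for number 2 alone, which was singled out after these values were seen. Of all 12970 tested probes, hearts numbered 1, 2 and 3 were the highest of both groups in 970, 1426 and 1829. Genes that vary together are not separate cases, and the count was not tested. Ier3 was the exception in hSRY-ON heart 2, at -0.16. Hearts numbered 1 were below the mean of their group for every tested gene but Ier3 in hSRY-ON, which was at 0.36. Nothing in the labels says that hearts with the same number belong together.

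**Figure D4:**
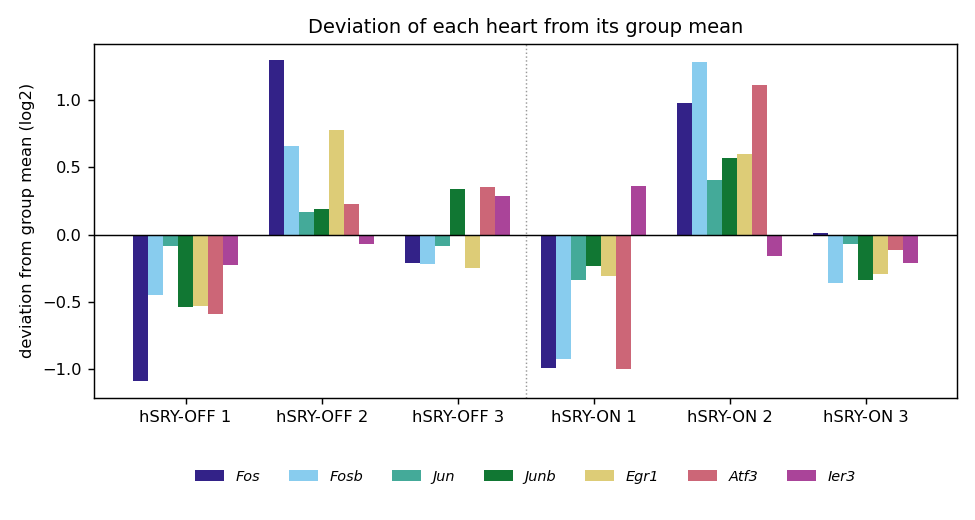
Deviation of each heart from the mean of its group (log2, vertical axis) for the 7 tested genes, with hSRY-OFF hearts on the left and hSRY-ON hearts on the right. Fos, Fosb, Jun, Junb, Egr1 and Atf3 are all above 0 in both hearts numbered 2 and all below 0 in both hearts numbered 1.

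Some technical and cellular measures were set beside this pattern. The mean deposited intensity of the array was 878, 939 and 631 in hSRY-OFF hearts 1, 2 and 3, and 723, 757 and 726 in hSRY-ON hearts, so that array 2 was the brightest of each group before normalization. The part of array brightness in the pattern was not tested. None of the 10 cell type marker lists had its highest summed level in heart 2 of both groups. Of single tested probes only 11% were highest there, so a count over 10 lists cannot settle the part of cell content. That part was not tested. The neutrophil list, with 6 of 8 markers above background on some array, ranged over 591 to 770 in summed level without SRY and was at 3736, 835 and 3407 in hSRY-ON hearts 1, 2 and 3. The sum in hSRY-ON heart 1 was carried by Ltf, at a log2 intensity of 11.44 there and 5.26 in hSRY-ON heart 2, while S100a8 was at 9.61 and 9.33 and Camp at 5.13 and 5.45 in the same hearts.

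The profile over the 6 hearts was then compared with that of every other tested probe, by the root mean square distance of the log2 values after centring each probe on its own mean. For Fosb, the member with the largest change, the closest non-member probes were those of Ccl6 (distance 0.35), Sesn1 (0.37), Abcg1 (0.37), Zc3h6 (0.38) and Ccl9 (0.38), against a median distance of 0.95. Fos itself was at 0.45, Junb at 0.54 and Egr1 at 0.57. Because these probes were picked for their likeness to the gene with the largest change, their own changes follow from the choice and are given with no test. They were 1.26 for Ccl6 and 1.24 for Ccl9, which encode chemokines, 1.28 for Sesn1, which encodes a stress-induced sestrin, 0.82 for Abcg1, a sterol transporter, and 0.75 for Zc3h6. Sesn1 was at 7.63, 7.66 and 7.45 in hSRY-OFF and 8.24, 9.91 and 8.43 in hSRY-ON hearts. The macrophage list, which was not used in the choice, had 6 of 9 tested markers called higher. Its summed level ranged over 2908 to 3463 without and 6518 to 6619 with SRY, and 1 of 10 markers was above background on no array. Its part in the levels of these chemokines was not tested.

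The genes that surround AP-1 were taken from lists of relatives, inducers, inhibitors and targets, with the brightest probe for each gene, and 28.8% of all 9660 tested genes were called on that basis, 14.9% higher and 13.9% lower in hSRY-ON. Among the partners and relatives of AP-1, 3 of 12 tested genes rose and 1 fell, with a median log2 fold change of 0.11 against 0.0026 over all genes. Batf, a bZIP protein that pairs with Jun and lacks an activation domain, was above background in none of the hSRY-OFF and all 3 hSRY-ON hearts. It rose at least 2.14-fold. Since it met the detection filter only through the hSRY-ON hearts, where it was high, its call is no independent support and no p-value is given. Jdp2, a bZIP repressor that binds Jun, was at 7.41, 7.41 and 6.92 in hSRY-OFF and 8.38, 8.51 and 8.04 in hSRY-ON hearts, a change of 1.06 (SE 0.19). The groups were well apart, and hSRY-ON heart 2 stood only slightly above its group. Creb3 rose by 0.67 (SE 0.12). Crem, a CREB relative that gives rise to inducible repressors, changed by -0.79 (SE 0.14), and of its other probes 1 was called and 1, at -0.32, was not.

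Among the other immediate early genes, 9 of 31 rose, 2 fell and 20 were not called, with a median log2 fold change of 0.42. Per1, a clock gene that is also induced rapidly by stimuli, had the largest increase, from 8.02, 8.83 and 8.88 in hSRY-OFF to 9.79, 10.49 and 9.97 in hSRY-ON hearts, a change of 1.51 (SE 0.27, limma adjusted p = 0.00636). Ctgf, which encodes a matricellular growth factor, was at 12.95, 13.12 and 13.35 in hSRY-OFF and 15.01, 14.62 and 14.28 in hSRY-ON hearts, a change of 1.497 (SE 0.20). Neither gene had overlapping groups, and in Ctgf hSRY-ON heart 1, not heart 2, was the highest. The other called increases were those of Cebpb at 1.39, Sgk1 at 1.21, Axud1 at 1.21, Nfkbia at 0.84, Id2 at 0.76 and Gadd45b at 0.63, and that of Myc. Myc was above background in no hSRY-OFF heart and rose at least 1.31-fold, and like Batf it met the detection filter only through the hSRY-ON hearts. Axud1, above background in 1 of 3 hSRY-OFF hearts, also met the filter only through the hSRY-ON hearts. Id2 was above background in 2 of 3 hSRY-OFF hearts. Cebpb and Sgk1 kept their calls in all 6 leave-one-out fits, while that of Gadd45b was lost in 5 of them, that of Axud1 in 4, that of Id2 in 3 and that of Nfkbia in 2. Klf2, a flow-responsive factor of endothelium, had the largest decrease, -0.81 (SE 0.24, limma adjusted p = 0.0384), a call lost when any heart but hSRY-ON 3 was left out. Tob1, an antiproliferative gene, changed by -0.81 as well (SE 0.11) and kept its call throughout. Without hSRY-ON heart 2, 6 genes of this list were called in place of 11.

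In the MAP kinase cascade, which phosphorylates the factors that switch on Fos and Egr1, 4 of 23 tested genes rose and 3 fell, with a median log2 fold change of -0.10. Mapk12, the p38 gamma kinase, rose by 0.80 (SE 0.11, limma adjusted p = 0.00186) and Mapkapk3, a substrate kinase of p38, changed by -0.85 (SE 0.22, limma adjusted p = 0.0254), a call lost in 5 of the 6 leave-one-out fits, all but the one without hSRY-ON heart 2. The number called in this list fell from 7 to 2 without hSRY-OFF heart 1, to 3 without hSRY-OFF heart 2 or hSRY-ON heart 1, and to 4 without hSRY-ON heart 3. In the list of the serum response factor, which binds the CArG box, and of related factors and co-regulators, 1 of 7 tested genes was called. That was Fhl2, a LIM protein of heart and skeletal muscle, which was at 13.21, 13.23 and 12.95 in hSRY-OFF and 10.26, 9.79 and 10.40 in hSRY-ON hearts. Its change of -2.98 (SE 0.18, limma adjusted p = 8.01e-05) was the largest decrease in these lists, while Srf itself was at -0.15 and was not called. The skeletal muscle list moved beside it, with 5 of 5 tested markers called lower and 5 more above background on no array. Its summed level ranged over 19617 to 21973 without and 8104 to 10783 with SRY, and its part was not tested. The brightest tested markers of this list were Ckm and Acta1, at mean log2 intensities of 13.61 and 10.11 over the 6 hearts. The other tested markers, Tnni2, Myog and Pvalb, were dimmer, at 6.75, 5.72 and 5.30. In the cardiomyocyte list, 4 of 9 tested markers were called lower, 1 was called higher and 4 were not called. The summed level of that list ranged over 136622 to 154616 without and 130607 to 141868 with SRY. A part of cardiomyocytes in the fall of Fhl2 was not tested either.

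Of the phosphatases and Sprouty proteins that shut the MAP kinases off, 3 of 11 tested genes rose and 1 fell. Dusp4, a nuclear phosphatase of ERK and JNK, was at 5.28, 5.21 and 5.62 in hSRY-OFF and 8.04, 8.34 and 7.11 in hSRY-ON hearts. Its change was 2.46 (SE 0.30), measured from near background, with 1 of 3 hSRY-OFF hearts above it. Since it met the detection filter only through the hSRY-ON hearts, its call is no independent support and no p-value is given. Dusp2 rose by 1.53 (SE 0.25) and Dusp6, the ERK phosphatase, by 0.61 (SE 0.16), while Dusp8 changed by -0.94 (SE 0.28). The calls of Dusp6 and Dusp8 were each lost with 4 of the 6 hearts left out in turn. Dusp1, a phosphatase that is itself immediate early, was at -0.17 and was not called.

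Among genes with described AP-1 or Egr1 sites, 7 of 15 tested genes rose, 2 fell and 6 were not called, with a median log2 fold change of 0.49. Timp1, an inhibitor of matrix metalloproteinases, was at 9.82, 9.72 and 9.86 in hSRY-OFF and 13.14, 13.06 and 12.71 in hSRY-ON hearts. The rise of 3.17 (SE 0.14, limma adjusted p = 3.44e-05) was the largest in these lists, and its other probe rose by 3.23. Mt2 and Mt1, which encode metallothioneins, rose by 1.71 and 1.11, and Hmox1, heme oxygenase 1, by 1.15. Ccnd1, which encodes cyclin D1, had the largest decrease, -0.67 (SE 0.20, limma adjusted p = 0.0427), a call lost in 5 of the 6 leave-one-out fits. In Timp1 the hSRY-OFF hearts lay within 0.14 of each other, whereas those of Fos spanned 2.38.

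**Figure D5:**
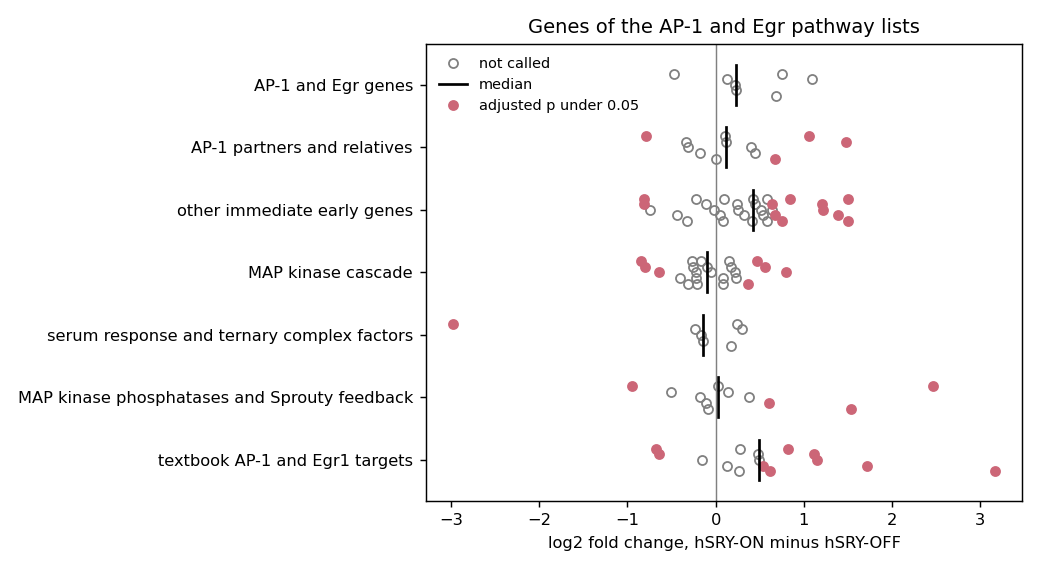
Log2 fold change (horizontal axis) of the tested AP-1 and Egr genes and of the genes of the 6 related lists, with filled circles for an adjusted p-value under 0.05, open circles otherwise and a bar at the median. The AP-1 and Egr row holds open circles only, and the farthest points of the other rows are Fhl2 at -2.98 and Timp1 at 3.17.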

How the data were processed

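Gene expression was measured on Illumina MouseRef-8 v2.0 BeadChips in 3 hSRY-ON and 3 hSRY-OFF hearts, with 1 array each. The authors deposited non-normalized probe intensities with a detection p-value for each probe and array, the share of negative-control beads at least as bright. The submitters name limma and the study's methods the R package TCC for their own analysis, without settings, and TCC was not used here. Intensities were background-corrected from the negative controls inferred from the detection p-values (neqc, offset 16), quantile normalized and set on the log2 scale. Probes with a detection p-value under 0.05 on at least 3 of 6 arrays were tested with limma 3.58.1 in R 4.3.3 by group alone, with Benjamini-Hochberg adjustment over 12970 probes. Intervals at 95% come from limma's moderated variance. The number of arrays limits the precision. The replicates are described as biological, but no label says how the pups relate. The workflow was tested on simulated data.

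The 10 genes and all lists were chosen with earlier results of these data known. Named genes were every member, the called gene with the largest increase and decrease of each list, and the 5 probes nearest in profile to the member with the largest change. Other genes were named after their values were seen. For a probe above background in no heart of a group, a bound is given in place of a fold change, with the dimmest detected signal of each array as the floor. Alternatives were other background corrections, normalizations, probe filters and variance models, the replicate number as a block, and each heart left out. Levels of human SRY were not analysed here, and the mouse Sry probe was above background on 0 of 6 arrays.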

Additional observations from a re-analysis of the deposited data

How the results depend on the processing

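None of the AP-1 and Egr genes changed direction under the 10 alternatives that kept all hearts and could test them. Without normalization between arrays 1 was called, Fosb at 0.95 (limma adjusted p = 0.0162), and with array weights 1, Junb at 0.90 (limma adjusted p = 0.0406). Fosb was not tested where detection on all 6 arrays or a detection p-value under 0.01 was required. With 1 heart left out the number called was 0 to 1, and the log2 fold change ranged from -0.43 to 0.63 for Atf3, from -0.074 to 0.62 for Egr1, from 0.21 to 1.40 for Fos, from 0.85 to 1.56 for Fosb, from 0.037 to 0.36 for Ier3, from -0.67 to -0.31 for Jun and from 0.40 to 0.86 for Junb. The sign turned for Atf3, to -0.16 without hSRY-OFF 1 and -0.43 without hSRY-ON 2, and for Egr1, to -0.037 and -0.074 without the same hearts. Why single hearts move these values was not tested.

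The labels number the hearts 1 to 3 in each group. Over all tested probes the deviations of same-numbered hearts correlated at -0.0248, 0.0375 and -0.0655. A value over all probes cannot show whether these hearts were paired in a few genes, so pairing was not settled. With the replicate number as a block, 2842 probes were called in place of 3567, and 2 of the 7 genes, Fos at 0.75 (limma adjusted p = 0.0280) and Fosb at 1.09 (limma adjusted p = 0.0297). The block left 4 called genes in the MAP kinase cascade and 2 among the phosphatases.

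Over all probes, 1897 were called without normalization between arrays, of which 38.5% were higher in hSRY-ON against 50.1% in the main analysis. Scaling each array to its median gave 65.7%. The median of all changes was then -0.12 and 0.095. With 1 heart left out, 2206 probes (without hSRY-OFF 1) to 3669 (without hSRY-OFF 3) were called. Without normalization the MAP kinase cascade had 2 called genes in place of 7 and the textbook targets 4 in place of 9. With 1 heart left out the other immediate early genes had 6 to 11 called genes, the MAP kinase cascade 2 to 5 and the phosphatases 2 to 3. Of 36 called genes in the lists, 15 kept their call under every alternative that tested them, and no sign turned.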
